A study of Mus musculus with 6 samples.

Results

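The genes described here are 50 genes of mitosis, the kinetochore and the spindle, taken from a list of names. A gene was kept when the array platform's annotation named a probe set (a group of short probes for 1 transcript) for that gene alone, and where a gene had several, the one brightest on average over the 6 arrays stood for it. This gave 49 of the 50 genes, out of 18193 genes measured in all. The expression of *Ccnb1* (cyclin B1) was not analysed here, and the gene enters only the promoter counts. Total RNA came from fibroblasts grown from the tail tips of newborn mice. There were 3 arrays of wild-type cells and 3 of cells from *Hotair* knockout mice, and both genotypes were on a background backcrossed to C57BL6 with over 97% similarity. *Hotair* is a long noncoding RNA of the Hoxc cluster, and its own level was not analysed here, and the genotypes are given as labelled. The labels do not say whether the arrays of a genotype came from separate mice or cultures, nor how dense or how old the cultures were.

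Most mitotic genes are silent in resting cells and are switched on late in the cell cycle, so that their RNA is most abundant when a cell is about to divide. Cyclin-dependent kinase 1 with cyclins A and B starts mitosis, the kinetochore ties each chromosome to the spindle, and the spindle checkpoint holds the anaphase-promoting complex back until every chromosome is attached. In resting cells the DREAM complex represses many of these genes through a promoter element called the cell cycle homology region. In cycling cells B-MYB and FoxM1 act through the same element, and NF-Y binds CCAAT boxes beside it. Cultured fibroblasts leave the cycle when they are crowded, starved or aged, and the RNA of these genes is then widely read as a measure of how many cells are dividing.

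The promoters are shown because many members held elements that were not used to choose the members. The words searched were picked because they are known from mitotic promoters, so an excess over all windows was foreseen. RefSeq promoter windows of assembly GRCm38.p6, running from 250 bases before to 50 bases after a gene's start, were matched by symbol for 42 of the 50 genes, in 47 windows. The windows were searched on both strands for CCAAT and for the cell cycle homology region, written as TTTGAA or TTCGAA; no match of one overlapped a match of the other in the windows printed. Of the 47 windows 32 held a cell cycle homology region, or 68.1%, against 19.2% of all 32851 windows in the table. CCAAT was present in 76.6% against 37.4%, and both together in 59.6% against 7.52%. At least 2 CCAAT boxes were present in 46.8% of members' windows and in 11.7% of all windows. The E2F-like word TTTCGCGC or GCGCGAAA was rare, at 2.13% against 0.323%, and its only match was in *Cdk1*. These are matches of letters, not measured binding, and base composition was not matched between the sets. The 6 windows below are those of the members that come earliest in the list and hold both elements, printed in the direction of the gene. They lie at chr7:135716330-135716629 on the minus strand (*Mki67*), chr11:99024140-99024439 on the minus strand (*Top2a*), chr10:69352863-69353162 on the minus strand (*Cdk1*), chr9:70421505-70421804 on the minus strand (*Ccnb2*), chr2:131186698-131186997 on the plus strand (*Cdc25b*) and chr2:127831810-127832109 on the minus strand (*Bub1*). Capitals mark the CCAAT boxes and cell cycle homology regions on either strand:
Mki67: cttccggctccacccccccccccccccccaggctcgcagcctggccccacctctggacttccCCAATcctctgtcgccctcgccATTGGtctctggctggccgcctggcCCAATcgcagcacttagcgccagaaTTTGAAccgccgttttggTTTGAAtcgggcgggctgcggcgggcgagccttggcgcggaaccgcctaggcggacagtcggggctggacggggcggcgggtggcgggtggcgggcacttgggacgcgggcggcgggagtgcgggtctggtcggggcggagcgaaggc
Top2a: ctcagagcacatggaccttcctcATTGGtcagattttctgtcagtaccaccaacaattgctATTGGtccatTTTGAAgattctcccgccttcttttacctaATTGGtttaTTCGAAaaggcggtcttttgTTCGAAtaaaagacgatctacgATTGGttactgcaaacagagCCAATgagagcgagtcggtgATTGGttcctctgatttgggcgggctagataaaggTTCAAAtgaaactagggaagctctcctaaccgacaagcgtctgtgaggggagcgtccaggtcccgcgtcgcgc
Cdk1: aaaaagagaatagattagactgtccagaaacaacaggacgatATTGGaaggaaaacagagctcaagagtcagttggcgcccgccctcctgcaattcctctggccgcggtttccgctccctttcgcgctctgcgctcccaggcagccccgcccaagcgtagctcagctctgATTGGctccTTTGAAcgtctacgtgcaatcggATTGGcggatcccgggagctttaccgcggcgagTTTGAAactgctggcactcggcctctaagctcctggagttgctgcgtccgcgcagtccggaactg
Ccnb2: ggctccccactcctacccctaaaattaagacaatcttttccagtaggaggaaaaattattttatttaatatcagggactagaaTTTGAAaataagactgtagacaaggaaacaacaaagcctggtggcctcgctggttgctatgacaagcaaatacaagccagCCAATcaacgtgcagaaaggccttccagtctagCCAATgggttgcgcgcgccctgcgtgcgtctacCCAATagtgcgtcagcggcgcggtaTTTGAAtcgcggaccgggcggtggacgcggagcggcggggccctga
Cdc25b: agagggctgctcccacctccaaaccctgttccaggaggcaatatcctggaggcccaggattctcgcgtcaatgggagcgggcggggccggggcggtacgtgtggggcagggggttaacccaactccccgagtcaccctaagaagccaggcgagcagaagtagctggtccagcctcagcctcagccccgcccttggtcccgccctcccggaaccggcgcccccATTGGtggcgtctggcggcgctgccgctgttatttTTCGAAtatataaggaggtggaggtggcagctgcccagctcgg
Bub1: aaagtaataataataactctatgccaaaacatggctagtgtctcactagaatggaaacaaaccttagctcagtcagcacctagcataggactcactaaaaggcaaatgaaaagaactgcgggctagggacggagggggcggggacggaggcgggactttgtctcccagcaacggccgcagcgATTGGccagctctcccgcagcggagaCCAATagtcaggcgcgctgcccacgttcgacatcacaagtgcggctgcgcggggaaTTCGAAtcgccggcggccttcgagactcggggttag

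The members' matches were concentrated near the start of the gene, but positions and spacings were not counted over all windows for comparison. Of 44 matches to the cell cycle homology region in the members' windows, 31 began within 50 bases on either side of the start. Of 73 CCAAT matches, 47 began in the 100 bases before it. *Ccnb2*, a B-type cyclin printed above, had CCAAT boxes beginning at −87, −54 and −21 and homology regions at −167 and 4. Neighbouring CCAAT boxes in the members' windows lay 30 to 36 bases apart in 9 of 37 cases. Windows of *Bub3*, *Ect2* and *Prc1* overlapped, so the totals of 44, 73 and 37 count some sites more than once.

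**Figure D1:**
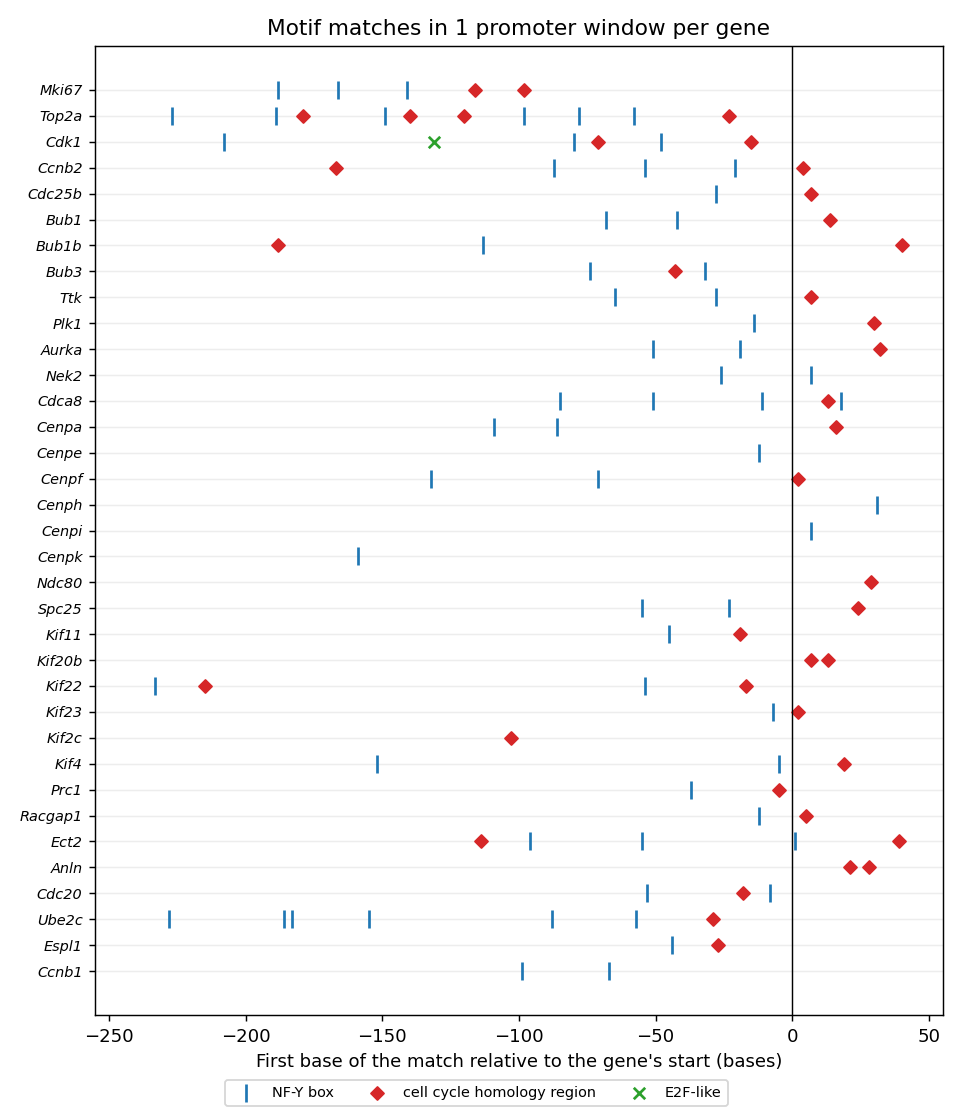
Each row is the RefSeq window of a member with at least 1 match (for a gene with several windows, 1 of those with a match), and the horizontal axis is the distance in bases from the gene's start to the first base of the match. Blue bars are NF-Y boxes (CCAAT), red diamonds cell cycle homology regions and the green cross the E2F-like match of *Cdk1*. Counted over all the members' windows, overlapping ones included, 31 of 44 homology regions lie within 50 bases of the start.

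On the arrays, these genes were low or high together. In both genotypes replicate 1 stood far below replicates 2 and 3: both replicate 1 values lay below all 4 other arrays for 48 of the 49 genes, which was true of 12.5% of all genes. Replicates 2 and 3 exceeded replicate 1 by a median of 3.10 in wild type, 8.57-fold, and by 2.73 in knockout, 6.61-fold, on the log2 scale of the deposited RMA values. The same medians over all genes were −0.17 and −0.04. Wild-type replicate 1 was the lowest of the 6 arrays for 44 members, knockout replicate 1 for 4, and wild-type replicate 3 for *Bub3* alone. The grouping by replicate number came from earlier knowledge of these data and replicate 1 holds 1 array per genotype, so this contrast is a description with no test. In bulk RNA, fewer dividing cells and less of each RNA per cell cannot be told apart.

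**Figure D2:**
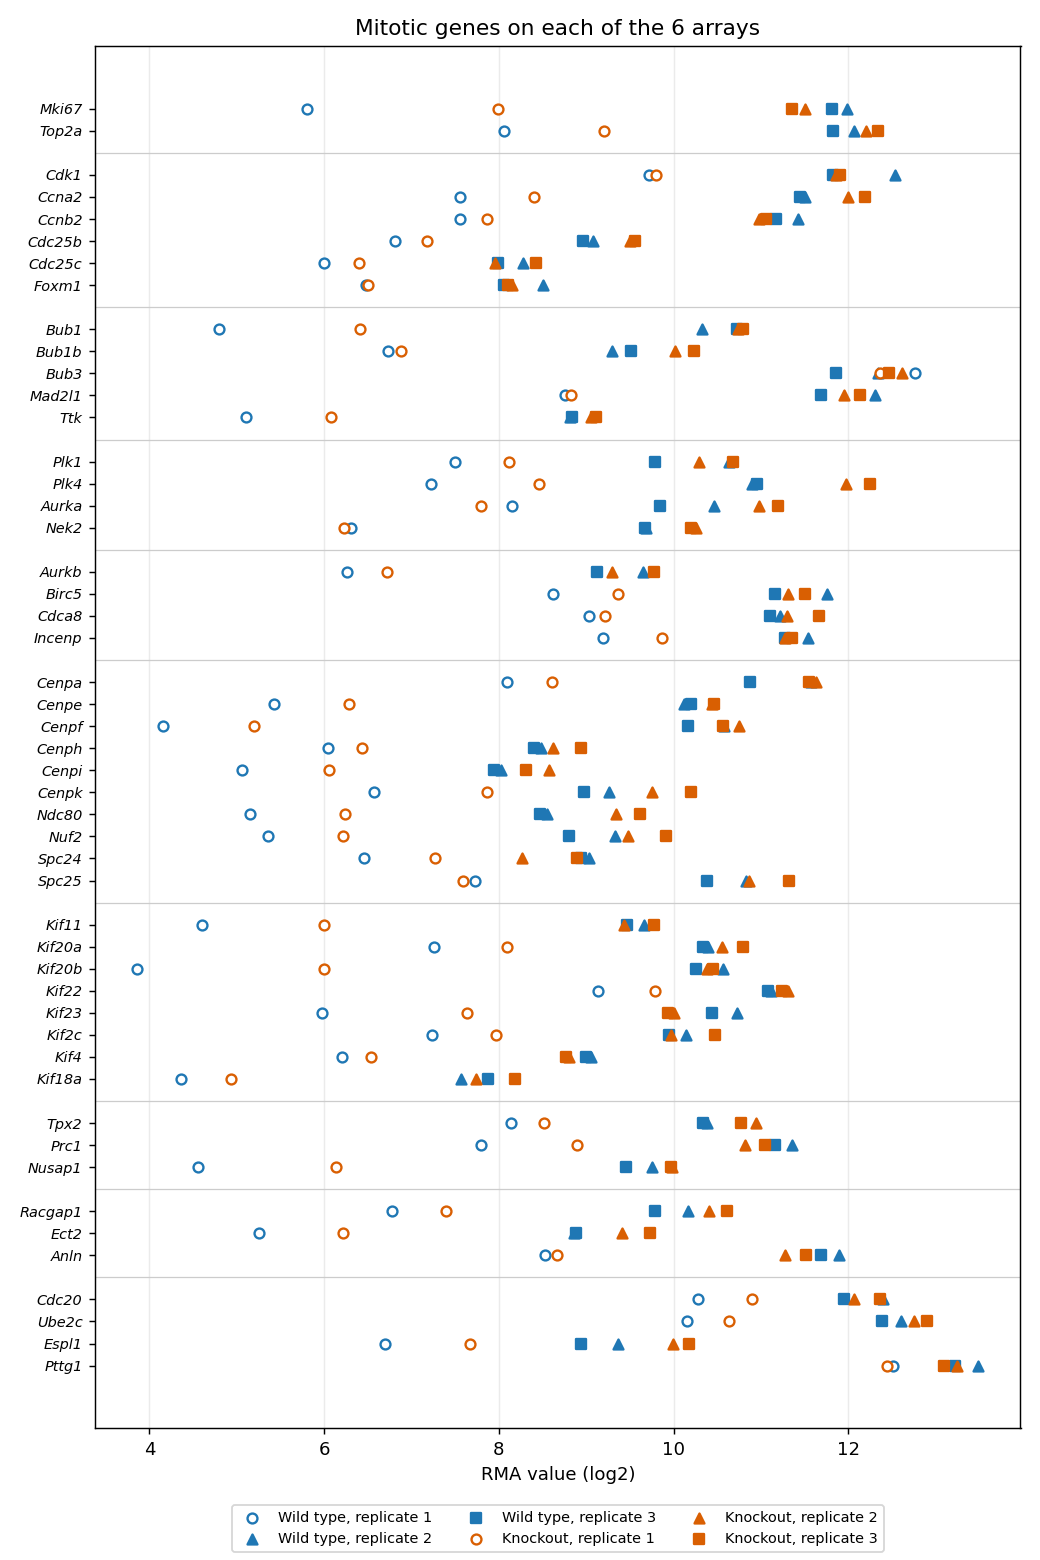
The horizontal axis is the RMA value (log2) and each row is 1 mitotic gene, grouped by role from markers of cycling cells at the top to sister separation at the bottom. Open circles are replicate 1, triangles replicate 2 and squares replicate 3, in blue for wild type and orange for knockout; in every row except that of *Bub3* both open circles lie left of the 4 filled symbols.

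Other properties of the arrays also varied, some on both replicate 1 arrays and some on knockout replicate 1 alone. Control probe sets for the 3′ and 5′ ends of 2 transcripts, which drift apart as RNA breaks down, differed by 0.63 (*Actb*) and 0.75 (*Gapdh*) on knockout replicate 1. On wild-type replicate 1 they differed by 0.12 and −0.18, and over all 5 arrays other than knockout replicate 1 by 0.12 to 0.21 and −0.21 to −0.03. Of 9 macrophage and leukocyte markers 6 were higher on both replicate 1 arrays than on the other 4, as were 24.6% of all genes. Their summed level was 9.87, 9.52 and 9.60 on wild-type replicates 1, 2 and 3, and 11.46, 9.07 and 8.68 on those of knockout (log2). *Tyrobp*, a macrophage adaptor, was 9.14 on knockout replicate 1 and 4.88 to 5.45 elsewhere, while the defining marker *Ptprc* (CD45) lay at 3.84 to 4.44, under the lower quartile of every array. *Lyz2* was 10.57 on knockout replicate 1 and 5.30 to 7.98 elsewhere. *Cd68* was 7.85 on knockout replicate 1, 6.47 on wild-type replicate 1 and 4.99 to 5.47 elsewhere. *Cd14*, the highest of the 9 on every wild-type array, went the other way there, at 8.17, 8.35 and 8.89. In knockout it was 7.89, 5.87 and 5.75. Of 10 fibroblast markers 7 lay between 11.31 and 14.83 on every array, among them *Col1a2* at 14.35 to 14.68 and *Vim* at 14.40 to 14.80. The other 3 varied. *Thy1* was 12.15 on wild-type and 11.71 on knockout replicate 1. It was 4.65 and 7.17 on wild-type replicates 2 and 3, and 10.54 and 10.28 on those of knockout. *Lum* was 8.79 and 10.46 on the replicate 1 arrays, 5.03 and 6.06 on those wild-type arrays and 8.77 and 8.56 in knockout. *Pdgfra* ran from 8.62 on wild-type replicate 1 to 12.50 on knockout replicate 2, with 9.93 on knockout replicate 1. *Thy1* and *Lum* were thus higher on both replicate 1 arrays than on the other 4, and *Pdgfra* and *Col1a2* lower. Among all genes 24.6% were higher in this way and 12.5% lower. Skeletal muscle markers summed to 12.9, 10.35 and 9.51 in wild-type cells and 11.6, 8.17 and 8.50 in knockout. On the replicate 1 arrays *Acta1* by itself measured 12.85 in wild type and 11.48 in knockout, its highest value in each genotype. Only 2 of the 7 muscle markers were higher on both replicate 1 arrays than on the other 4. Their median of replicates 2 and 3 minus replicate 1 was −0.08 in wild type and 0.06 in knockout. The part of these differences in the mitotic genes was not tested.

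Dim RMA values are compressed. On wild-type replicate 1, 6 members lay under the lower quartile of all genes on that array (4.81), namely *Bub1*, *Cenpf*, *Kif11*, *Kif20b*, *Kif18a* and *Nusap1*, so their wild-type folds below are not measured ratios of RNA.

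The markers of cycling cells were far lower on replicate 1. *Mki67* encodes Ki-67, the surface coat of mitotic chromosomes and the usual stain for proliferation. It measured 5.80, 11.98 and 11.81 on wild-type replicates 1, 2 and 3, and 7.99, 11.51 and 11.35 on those of knockout. Replicates 2 and 3 were thus 68.4-fold above replicate 1 in wild-type cells and 10.8-fold in knockout. *Top2a*, the topoisomerase that untangles sister chromatids, measured 8.06, 12.07 and 11.83 in wild-type cells and 9.20, 12.20 and 12.34 in knockout. Its distances were 14.8-fold and 8.40-fold.

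The genes that drive entry into mitosis ranged from 1.80 to 3.91 in wild type (log2). *Cdk1*, the kinase itself, measured 9.72, 12.53 and 11.83 in wild-type cells and 9.80, 11.86 and 11.91 in knockout, or 5.52-fold and 4.26-fold. *Ccna2*, cyclin A2, was 7.56, 11.50 and 11.45 against 8.40, 12 and 12.19. *Ccnb2* was 7.55, 11.42 and 11.17 against 7.86, 10.98 and 11.06. The phosphatases that switch CDK1 on, *Cdc25b* and *Cdc25c*, were 4.64-fold and 4.38-fold apart in wild-type cells and 5.09-fold and 3.46-fold in knockout. *Foxm1*, the transcription factor that acts on this programme, was 3.48-fold and 3.08-fold apart. Of its 2 other bright probe sets, one gave log2 distances of 1.53 in wild type and 1.66 in knockout, the other 3.01 and 2.61. The group's medians were 2.34 in wild-type cells and 2.22 in knockout (log2).

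Checkpoint genes ran from one of the longest distances to almost none. *Bub1*, a checkpoint kinase at the kinetochore, measured 4.80, 10.32 and 10.73 in wild-type cells and 6.41, 10.74 and 10.79 in knockout, 53.2-fold and 20.4-fold. *Bub1b* (BubR1) and *Mad2l1* (Mad2), which block CDC20, were 6.37-fold and 9.45-fold apart in wild-type cells and 9.46-fold and 9.22-fold in knockout, and the kinase *Ttk* (Mps1) 13.3-fold and 8.05-fold. *Bub3*, their partner, was the exception among all 49 members. It measured 12.76, 12.34 and 11.86 in wild-type cells and 12.36, 12.61 and 12.47 in knockout, so that wild-type replicate 1 was its highest array. In a further bright probe set of *Bub3*, replicates 2 and 3 minus replicate 1 came to −0.52 in wild type and −0.34 in knockout. *Bub3* had 2 overlapping promoter windows, which showed the same pair of CCAAT boxes with a homology region between them. These began at −74, −32 and −43 counted from the one start and at −198, −156 and −167 from the other. In *Bub1*, printed above, and *Ttk* the homology region began after the gene's start, at 14 and 7.

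Mitotic kinases and the chromosomal passenger complex were low together. *Plk1*, which acts from entry to exit, measured 7.50, 10.63 and 9.79 in wild-type cells and 8.12, 10.29 and 10.68 in knockout. *Plk4*, which starts centriole duplication, measured 7.22, 10.90 and 10.96 in wild-type cells and 8.46, 11.97 and 12.25 in knockout. *Aurka*, the spindle-pole Aurora kinase, was 8.15, 10.46 and 9.84 against 7.80, 10.98 and 11.20. With *Nek2*, a kinase of centrosome separation, *Spc25* and *Pttg1*, *Aurka* was 1 of the 4 members whose lowest array was knockout replicate 1. The passenger complex places Aurora B at centromeres and then at the midzone. Its 4 members, *Aurkb*, *Birc5* (survivin), *Cdca8* (borealin) and *Incenp*, had distances of 8.74-fold, 7.18-fold, 4.36-fold and 4.64-fold in wild type and of 7.04-fold, 4.14-fold, 4.79-fold and 2.73-fold in knockout.

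All 10 centromere and kinetochore members had both replicate 1 arrays below the rest, with median distances of 3.03 in wild-type cells and 3.11 in knockout (log2). *Cenpf*, a large outer kinetochore protein made in late cycle, measured 4.15, 10.58 and 10.16 in wild-type cells and 5.20, 10.75 and 10.56 in knockout, 74.2-fold and 43.8-fold. The kinetochore motor *Cenpe* was 26.6-fold and 18.1-fold apart. *Cenpa*, the histone H3 variant that marks centromeres, measured 8.09, 11.57 and 10.88 against 8.61, 11.63 and 11.55. The NDC80 complex holds microtubule ends. Its 4 subunits *Ndc80*, *Nuf2*, *Spc24* and *Spc25* were 10.3-fold, 13.1-fold, 5.76-fold and 7.36-fold apart in wild-type cells and 9.45-fold, 11.2-fold, 2.49-fold and 11.3-fold in knockout. The inner proteins *Cenph*, *Cenpi* and *Cenpk* had distances of 5.26-fold, 7.59-fold and 5.85-fold in wild-type cells and 5.09-fold, 5.25-fold and 4.31-fold in knockout.

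The 8 kinesins, motors that build the spindle and move chromosomes, ranged from 1.96 to 6.56 in wild type (log2). *Kif20b*, a motor of late mitosis and cytokinesis, measured 3.86, 10.57 and 10.26 in wild-type cells and 6.0, 10.38 and 10.45 in knockout, 94.1-fold and 21.3-fold, the first against a value under the lower quartile of its array. *Kif11* (Eg5), which pushes the poles apart, was 31.3-fold and 12.2-fold, and *Kif22*, which moves chromosome arms, 3.88-fold and 2.79-fold. *Kif23* of the central spindle had the most unequal distances of the 8, at 24.5-fold against 5.02-fold, while *Kif20a*, *Kif2c*, *Kif4* and *Kif18a* lay between 6.98-fold and 10.2-fold in wild type and between 4.75-fold and 8.19-fold in knockout. The microtubule proteins *Tpx2*, *Prc1* and *Nusap1* were 4.65-fold, 11.0-fold and 33.1-fold apart in wild-type cells and 5.02-fold, 4.09-fold and 14.3-fold in knockout.

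The 3 cytokinesis genes had median distances of 3.26 and 3.12, and the 4 genes of sister separation 2.12 and 1.75 (log2). *Racgap1*, the GTPase-activating partner of *Kif23*, *Ect2*, which activates RhoA at the cell equator, and *Anln* (anillin) were 9.20-fold, 12.3-fold and 9.59-fold apart in wild-type cells and 8.69-fold, 10.2-fold and 6.61-fold in knockout. *Cdc20*, the activator of the anaphase-promoting complex, measured 10.28, 12.40 and 11.95 in wild-type cells and 10.90, 12.07 and 12.36 in knockout, 3.73-fold and 2.49-fold. *Ube2c*, its ubiquitin-conjugating enzyme, was 5.09-fold and 4.57-fold. *Espl1* (separase), which cuts cohesin, was 5.45-fold and 5.36-fold, and its inhibitor *Pttg1* (securin) only 1.80-fold and 1.66-fold, the smallest distance after *Bub3*. *Pttg1* was bright even on replicate 1, at 12.51 in wild-type cells and 12.44 in knockout.

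Besides those 6, further replicate 1 values were dim. On wild-type replicate 1, 26 members were under the median of all genes. On knockout replicate 1 none was under the quartile (4.73) and 19 were under the median, and on the other 4 arrays none was under the median. Over all members 43 distances exceeded 2 in wild-type cells and 41 in knockout, and 8 and 5 exceeded 4 (log2). The distance was the larger in wild type for 41 of 49 members. Between replicates 2 and 3 of a genotype, by contrast, a member differed by a median of 0.24 in wild-type cells and 0.19 in knockout, and at most by 0.84 and 0.64.

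**Figure D3:**
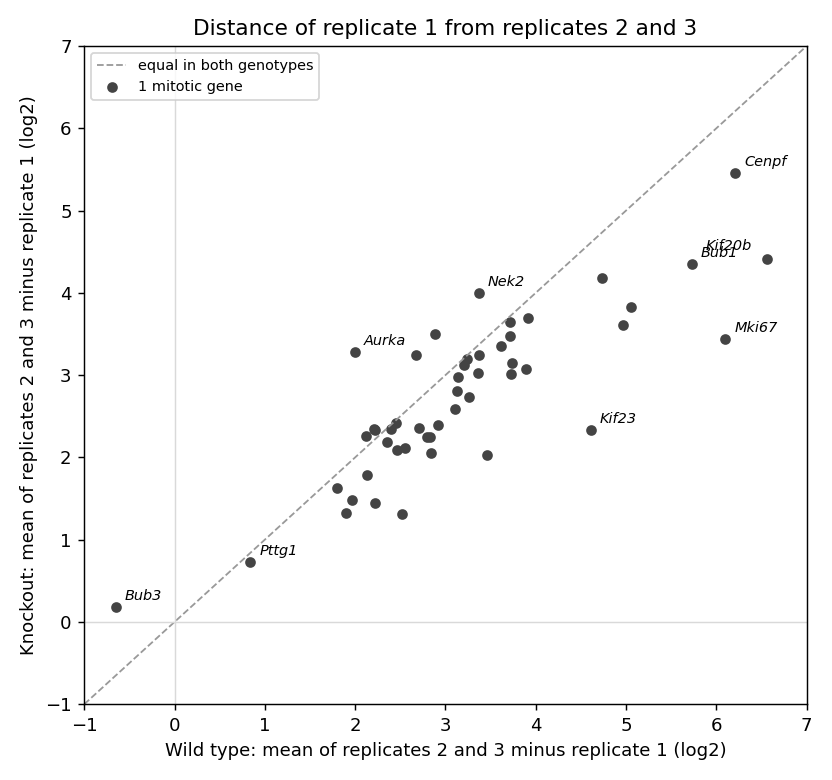
Each point is 1 mitotic gene; the axes give the mean of replicates 2 and 3 minus replicate 1 in wild type (horizontal) and in knockout (vertical), in log2 units, and the dashed line marks equal distances. *Bub3* sits at −0.65 and 0.18, apart from all other members, and 41 of 49 points have the larger distance in wild type.

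Further probe sets bore on this. Of 61 further probe sets, for 32 members, 48 also had both replicate 1 values below the rest. The other 13 belonged to 10 genes, and 12 of these 13 had a mean under 6, among them 1 each of *Top2a* (4.45), *Foxm1* (3.78) and *Kif23* (3.80); the last was that of *Bub3* described above. The size of the distance varied between probe sets of a gene. The further probe set of *Bub1* gave 2.84 in wild type and 2.37 in knockout (log2), against 5.73 and 4.35 above. For *Kif11* one further probe set gave 1.77 and 1.92 and the other 4.53 and 4.04, against 4.97 and 3.61. Members with and without a cell cycle homology region had similar distances. The median was 3.14 in wild type for the 29 measured members with a match and 3.30 for the 12 with a window but no match, and 2.98 and 3.12 in knockout, with no test.

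Genes of the same processes outside the 50 were low on replicate 1 in most lists but not in all. Of 118 other mitotic genes measured, from 121 listed, 83 had both replicate 1 values below the other arrays and 7 had both above. Condensin and cohesin, the rings that compact and hold chromosomes, counted 16 of 17. An example is *Smc4*, chosen like *Anapc2*, *Fbxo5*, *Mybl2*, *E2f7* and *E2f4* below after the values were seen, at 7.89, 12.57 and 12.69 in wild-type cells and 8.92, 12.65 and 12.80 in knockout. Other kinetochore and checkpoint genes counted 23 of 29 and other spindle and centrosome genes 22 of 26. Among the spindle genes not counted, *Kif14*, also chosen after the values were seen, lay at 3.44 to 3.77, under the lower quartile of every array. *Kif15* lay at 4.76 to 5.05, under the median of every array. A low replicate 1 could hardly show in genes so dim. The anaphase-promoting complex was different. Its list of subunits and regulators counted 4 of 14, with median distances of 0.11 in wild-type cells and 0.19 in knockout. *Anapc2*, its cullin, measured 11.17, 10.30 and 10.18 in wild-type cells and 11.45, 10.28 and 10.60 in knockout, so that both replicate 1 arrays were the highest. Of its 11 core subunits, a split made after the values were seen, *Anapc5* and *Cdc27* were the 2 with low replicate 1 values. Its inhibitor *Fbxo5* (Emi1), by contrast, measured 6.98, 10.91 and 10.56 in wild-type cells and 8.19, 10.67 and 10.96 in knockout, like the activator *Cdc20* and the enzyme *Ube2c* among the members.

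The regulators of the programme were mixed. Among 13 genes of B-MYB, the MuvB core and the E2F family, 6 had both replicate 1 values low. *Mybl2* (B-MYB) measured 5.75, 6.89 and 6.99 in wild-type cells and 5.37, 7.23 and 7.59 in knockout, and the repressor *E2f7* 7.06, 9.56 and 9.48 against 7.80, 9.12 and 9.27. *E2f4*, an E2F of resting cells, lay between 6.25 and 6.60 on every array, each time under the median of all genes. The 19 S phase genes measured counted 14, with median distances of 0.87 in wild-type cells and 1.46 in knockout, against 3.10 and 2.73 for the mitotic members; the difference was not tested. Other CDK1 regulators counted 8 of 11 and other cytokinesis genes 4 of 8.

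**Figure D4:**
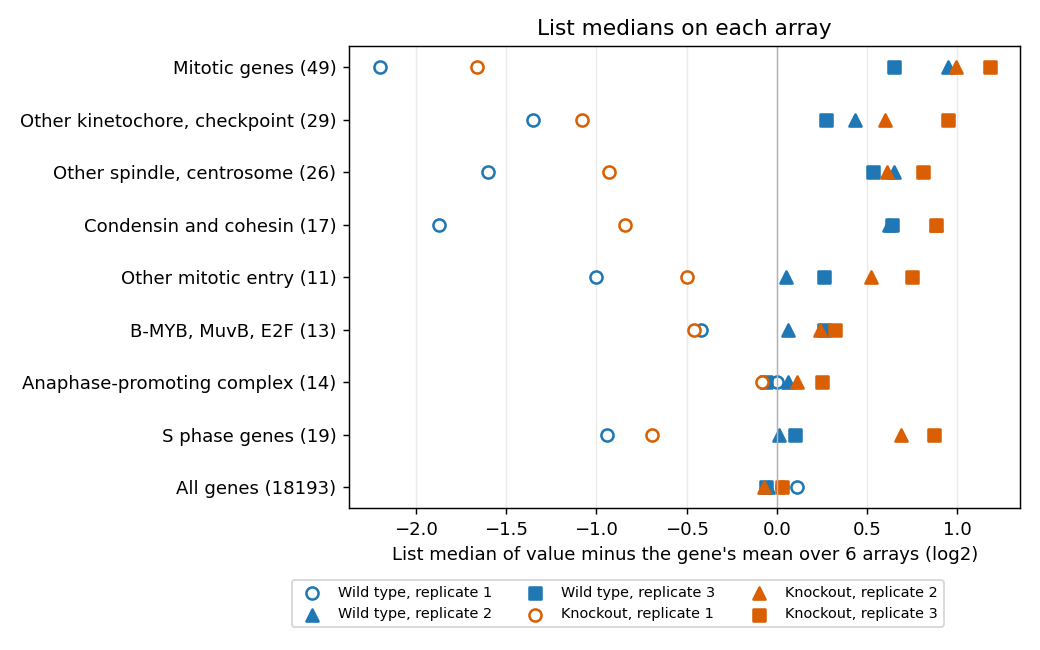
For each list (number of genes in brackets) the horizontal axis gives the median over its genes of the value minus the gene's own mean over the 6 arrays (log2). Open circles are replicate 1, triangles replicate 2 and squares replicate 3, in blue for wild type and orange for knockout; the mitotic genes lie at −2.20 and −1.66 on replicate 1 and at 0.65 to 1.18 elsewhere, while the anaphase-promoting complex stays within −0.08 to 0.25.

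Whether mitotic genes differed between the genotypes could hardly be read through this spread. No member passed over the 6 arrays: limma gave adjusted p of 0.931 to 1.0 over all genes, none of the 49 had an unadjusted p under 0.05, and 0% of all genes were called (1216 had an unadjusted p under 0.05). The median difference, knockout minus wild type, was 0.39 for the members and 0.01 for all genes, and 42 of 49 lay above 0. For 48 of 49 the difference was smaller than its SE, whose median was 1.16. *Mki67* averaged 9.86 ± 3.52 in wild-type cells and 10.29 ± 1.99 (SD, n = 3) in knockout, which differ by 0.43 ± 1.93 (SE). The smallest p belonged to *Cenpk*, with 8.27 ± 1.48 and 9.27 ± 1.24 (SD, n = 3), 1.0 ± 0.93 (SE), while *Plk4* had the highest difference, 1.20 ± 1.44 (SE). Single arrays decided the median, which was −0.61 without wild-type replicate 1 (3 of 49 above 0), 1.34 without knockout replicate 1 (49 of 49), −0.00 and −0.10 without knockout replicates 2 and 3, and 0.91 and 0.80 without wild-type replicates 2 and 3.

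Set against the wild-type array of the same number, knockout was more often the higher. Pairing by number was assumed, and the arrays do not establish it for numbers 2 and 3. The median difference of the members was 0.65 in replicate 1, 0.14 in replicate 2 and 0.44 in replicate 3, with 44, 29 and 41 of 49 above 0, and over all genes it was −0.03, −0.01 and 0.10. Knockout was higher in all 3 for 25 members, as for 17.1% of all genes, and lower in all 3 for *Pttg1* alone, as for 13.4% of all genes. With the replicate number as a block the median SE shrank to 0.21, and 12 members had an unadjusted p under 0.05, against 11.1% of all genes, but limma called none (smallest adjusted p 0.424). These 12 were all higher in knockout, as were 6.86% of all genes at that threshold. Members move together, so such counts are not counts of independent genes.

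Without the replicate 1 arrays a few differences passed the test, which then compared only replicates 2 and 3 of each genotype. The replicate 1 arrays were left out with their low values already known, so the SEs below omit that spread. Over the 6 arrays the SE of *Plk4*, for example, was 1.44. On the 4 arrays left, limma called 4 of 49 members higher and none lower, where it called 7.56% of all genes higher and 6.41% lower. The share of members called higher is close to that of all genes. *Plk4* rose by 1.18 ± 0.17 (SE; adjusted p = 0.0153), *Ndc80* by 0.96 ± 0.17 (0.0249), *Espl1* by 0.94 ± 0.20 (0.0410) and *Bub1b* by 0.73 ± 0.17 (0.0499). All 3 probe sets of *Plk4* were higher in knockout over the 6 arrays, by 1.20, 0.93 and 1.05, as were all 3 of *Bub1b*, by 0.54, 1.13 and, for a dim one, 0.24; *Ndc80* and *Espl1* had 1 each. Both knockout values lay above both wild-type values for 26 members, as for 31.6% of all genes, and below for 7, as for 23.6%. The 7 were *Mki67*, *Ccnb2*, *Spc24*, *Kif23*, *Kif4*, *Prc1* and *Anln*. *Kif23* was 10.73 and 10.44 in wild-type cells and 10 and 9.94 in knockout, a difference of −0.62 ± 0.17 (SE; limma adjusted p = 0.0747), and *Mki67* was at −0.46 ± 0.16 (adjusted p = 0.134). On replicate 1 both were higher in knockout, by 1.67 and 2.20. With array weights limma called 11.5% of all genes and none of the members.

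**Figure D5:**
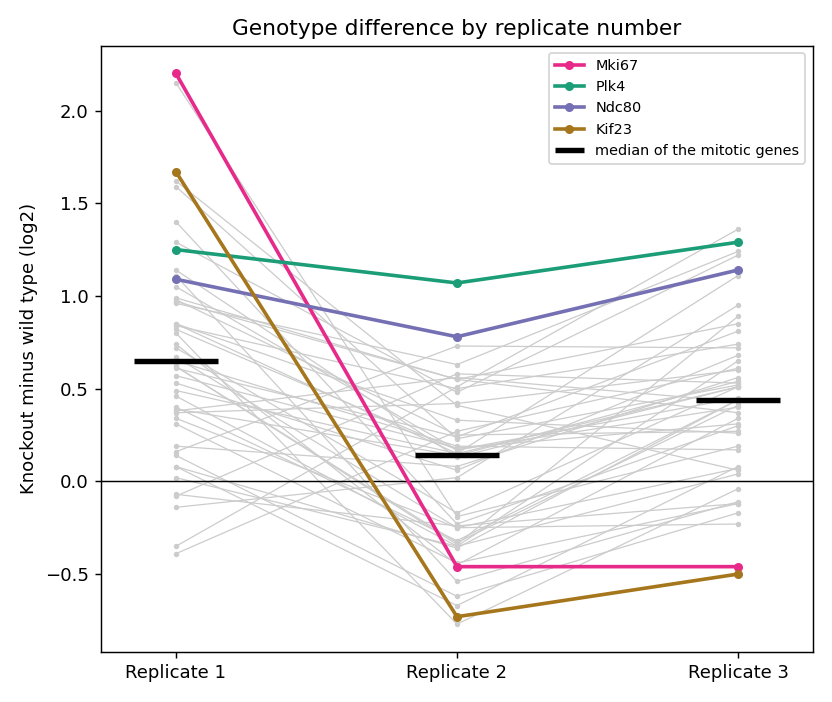
The vertical axis is knockout minus wild type (log2) between arrays of the same replicate number; each line joins the 3 values of 1 mitotic gene, and black bars are medians over the 49 (0.65, 0.14 and 0.44). *Plk4* and *Ndc80* lie above 0 in all 3, while *Mki67* and *Kif23* lie above 0 in replicate 1 and below it in replicates 2 and 3.

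The other mitotic genes were called higher about as often as all genes. Over the 6 arrays 0 of 118 passed, and the members of smallest p in their lists were *Pmf1* (0.80), *Kif15* (0.14), *Ncaph2* (0.57), *Cdc26* (0.75), *Ensa* (0.59), *Rhoa* (−0.54) and *Rbbp4* (0.31). Of these, *Kif15* was dim on every array. Without replicate 1 limma called 11 of 118 higher and 2 lower, beside 7.56% and 6.41% of all genes. The highest was *Sgo1* (shugoshin), the protector of centromeric cohesin, at 9.38 and 9.20 in wild-type cells and 10.74 and 10.81 in knockout, a rise of 1.49 ± 0.15 (SE; adjusted p = 0.00894). *Trip13*, which disassembles the checkpoint complex, rose by 1.23, *Pds5b* of cohesin by 1.16, *Cenpq* by 1.11, *Anapc1* by 1.05, *Dsn1* of the outer kinetochore by 1.03 and *Cdc26* by 1.0. *Sass6* of the centriole rose by 0.96, *Ensa* by 0.92, *Mis18a* by 0.90 and *Ncaph2* by 0.79. The 2 that fell were *Ckap2* of the spindle, at −0.97, and *Cep55*, which acts in the final cut between daughter cells, at −0.74. Array weights over the 6 arrays also called *Anapc1*, *Cdc26*, *Ensa* and *Ncaph2*, none of which had low values on both replicate 1 arrays.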

How the data were processed

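Each deposited value is the log2 summary of a probe set, for which the submitters' processing notes name RMA and R 2.11.1. RMA forces the same spread of intensities on every array, so a change in total RNA cannot be seen. Of 45101 probe sets, 34945 were named for 1 gene by the platform table; 932 with several genes, 9160 with none and 64 controls named no gene. The genotype tests used lmFit and eBayes of limma 3.58.1 (R 4.3.3) on all 18193 genes with Benjamini-Hochberg adjustment at 0.05, and the script was tested on simulated data. With 3 arrays a group, their number limits the precision, p-values measure the spread between arrays, which may be technical, and exact permutation of the labels of 1 gene gives no p below 0.1. The numbers were taken to pair the arrays. After subtracting each genotype's mean, the like-numbered arrays correlated at 0.51, 0.39 and 0.35 for numbers 1, 2 and 3. Crossed, wild-type replicate 3 correlated with knockout replicate 2 at 0.43, and wild-type replicate 2 with knockout replicate 3 at 0.28. With replicate 1 apart in both genotypes, replicates 2 and 3 correlate across genotypes under either pairing. These values therefore do not establish pairs for numbers 2 and 3. All members were named, and other mitotic genes where they passed or had the smallest p of their list. *Smc4*, *Kif14*, *Anapc2*, *Anapc5*, *Cdc27*, *Fbxo5*, *Mybl2*, *E2f7* and *E2f4* were added after their values were seen. The members and lists were chosen with earlier results of these data known. Alternatives were the block, array weights, leaving out arrays, other probe sets, all probe sets, a filter on dim genes, renormalisation, another prior and a threshold of 0.1. Promoters came from RefSeq, GRCm38.p6.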

Additional observations from a re-analysis of the deposited data

How the results depend on the processing

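The count of members called between genotypes stayed at 0 in each direction with the replicate block (0), without each single array, with array weights, with other probe sets or with all of them fitted, with only genes of mean log2 value of at least 6, after quantile normalization, with a trended and robust prior and at an adjusted p under 0.1. With arrays 2 and 3 of each genotype it was 4 higher. The median difference, 0.39 over all arrays and with the replicate block, was 0.26 with array weights, 0.23 with the mean of probe sets and 0.18 with the middle probe set, and ran from −0.61 to 1.34 when 1 array was left out. The distance of replicate 1 depended on the probe set: its median was 2.46 in wild type with either the mean or the middle probe set, and 2.19 and 2.35 in knockout. Of single members 4 passed, all with arrays 2 and 3; with adjusted p of at least 0.931 over the 6 arrays, the lack of other calls says nothing about stability. Without wild-type replicate 1 the difference of *Mki67* went from 0.43 to −1.61 and that of *Cenpf* from 0.54 to −1.53. Over the 6 arrays the SE of a member, 0.25 to 2.28, limits what can be called.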
